A study of Homo sapiens with 5 samples.

Results

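Small Cajal body RNAs are short guide RNAs of the nucleus. Of the 14812 genes named in the deposited array table, 21 carried a symbol made of SCARNA or SNORA and a digit, and these 21 are described here. All 21 were SCARNA genes, out of 29 such symbols in the RefSeq annotation, and 0 were SNORA genes, the H/ACA RNAs of the nucleolus, which are not analysed here. The label of H/ACA RNAs therefore fits the set in part: 12 of the 21 are known as box H/ACA RNAs, 5 as box C/D RNAs, 3 as composites that hold both box types, and SCARNA27 was left unclassified. These types come from textbook knowledge and were written down after the values had been seen.

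The RNA came from 5 clones, each grown from a single transduced cell of TE7, a line of human esophageal carcinoma. There were 3 clones with the construct pMIRNA1-puro-CDH26, which expresses the cadherin CDH26, and 2 with pMIRNA1-puro-control. All 5 were kept for 24 h in RPMI with 1.8 mM calcium and hybridised to 1 Gene 2.0 ST array each. A clone carries its own history beside its construct, so differences between constructs and differences between clones share the same arrays, and every p-value below measures the spread between these clones. Each value is a logarithm, read as log2, from which the mean of both controls has been taken away, so the 2 control values of a gene are always equal and opposite and no level of any RNA is kept. Values of a group are given in the order of the clone numbers. Neither the labelled cell type nor the amount of any RNA could therefore be checked. Each array also reads a whole culture, in which fewer cells with an RNA and less of it per cell cannot be told apart.

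Guide RNAs pair with a target RNA and carry the enzyme that modifies it. Box C/D RNAs bind fibrillarin and direct 2′-O-methylation, whereas box H/ACA RNAs bind dyskerin and direct the conversion of uridine to pseudouridine. Those held in Cajal bodies act mostly on the small nuclear RNAs of the spliceosome, and most are cut from the introns of other genes.

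The sequence tables used here gave only 1 stretch within these genes, a mature microRNA inside SCARNA3 (RefSeq, GRCh38.p14, minus strand, with the seed in capitals). It is shown because SCARNA3 is a guide RNA gene that also holds an annotated microRNA.
hsa-miR-1843: uAUGGAGGucucugucuggc

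CDH26 itself had values of 2.87, 3.01 and 2.63 in the CDH26 clones, against 0.01 and −0.01 in the controls, which fits their labels. No gene in the table passed limma's Benjamini-Hochberg adjusted threshold of 0.05 (0% of 14812 genes), CDH26 included (adjusted p = 0.25). At an unadjusted 0.05, 520 genes were on the higher side and 593 on the lower.

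The Cajal body RNAs did not shift as one group between CDH26 and control clones. Their median log2 difference, CDH26 minus control, was −0.02, beside 0.00 over all named genes, and single RNAs ran from −0.79 to 0.22. The mean was lower in CDH26 clones for 13 of the 21 and higher for 8; over all named genes 49.5% had a lower mean. No overlap, with every CDH26 clone under the controls, was found in 2 of the 21, SCARNA17 and SCARNA10, a share of 9.52% beside 9.93% of all named genes. The CDH26 clones lay above both in 0 of the 21, beside 8.98% of all named genes. A tie between the groups can keep a gene out of both classes. Among the 6857 genes without ties, 18.6% lay wholly below and 16.4% wholly above. By limma 0 passed the adjusted threshold. At an unadjusted 0.05, 2 were on the lower side (background 4%) and 0 on the higher (background 3.51%).

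These counts turned on which control clone was used. Without control clone 1 the CDH26 clones lay above the remaining control in 8 of the 21 RNAs and below it in 2, beside 25.9% and 27% of all named genes. Without control clone 2 they lay above it in 0 and below it in 10, beside 23.8% and 25.7%. The count below was 5 without CDH26 clone 1, 2 without clone 2 and 7 without clone 3, beside 13.3%, 11.9% and 17.3%. Above the controls there were 2 RNAs without CDH26 clone 2, beside 11.5%, and 0 without either of the other CDH26 clones.

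**Figure D1:**
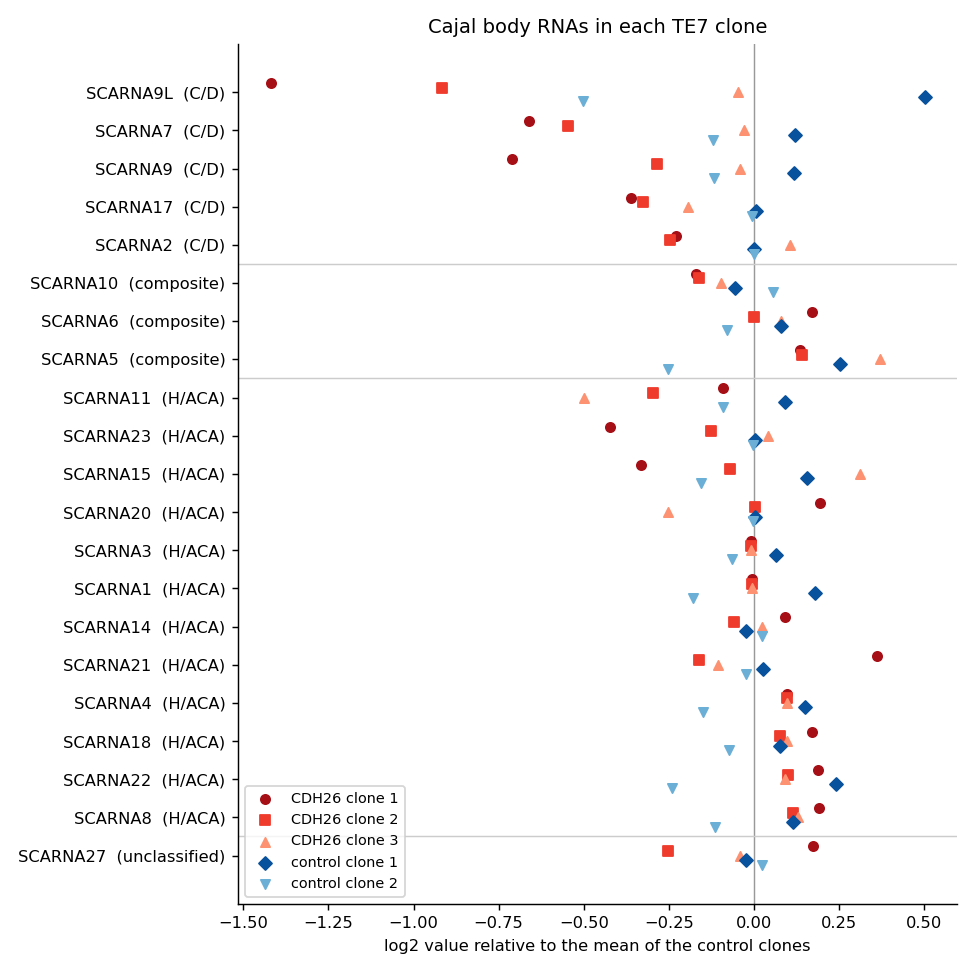
Values of the 21 Cajal body RNAs in each clone, as log2 with the control mean at 0, grouped by box type. Each point is 1 array. In the 5 box C/D RNAs at the top, CDH26 clones 1 and 2 lie left of both controls, and clone 3 lies nearer to 0 than they do.

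The box C/D RNAs had the most negative median difference of the box types, −0.35, and the 3 most negative single RNAs, SCARNA9L, SCARNA7 and SCARNA9. All 5 had a lower CDH26 mean, beside 49.5% of all named genes, and in all 5 CDH26 clone 3 lay nearer to the control mean than clones 1 and 2 did. Over all named genes clone 3 was the nearest of the CDH26 clones in 33.9%, a share in which ties for nearest do not count. The lower mean held for all 5 with any 1 clone left out. In 4 of the 5 the clones of the groups overlapped, and in 1 they lay wholly below. The share wholly below was 9.93% over all named genes and 18.6% over those without ties, as these 5 are. Without SCARNA9L, which may share probe signal with SCARNA9, all 4 remaining RNAs had a lower mean, with a median of −0.32.

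The listed cell type markers were measured in part. Of 5 fibroblast markers 2 were, with the proteoglycan LUM at 2.01, 1.91 and 0.86 in the CDH26 clones, against −0.09 and 0.09 in the controls, and DCN between −0.01 and 0.05 on all arrays. LUM, like the box C/D RNAs, had its smallest departure in CDH26 clone 3. So did DCN, EPCAM, KRT5, KRT8 and KRT18 among the other markers measured, while KRT19 and CD14 did not. Of 6 epithelial markers 5 were measured. KRT5 and KRT19 lay wholly above the controls, with differences of 0.61 and 0.35. These were 2 of 5, beside 8.98% of all named genes and 16.4% of those without ties. The lowest CDH26 clone of KRT5, at 0.498, barely exceeded control clone 1, at 0.494. EPCAM, KRT8 and KRT18 overlapped, with negative differences of −0.22, −0.22 and −0.29. The 1 leukocyte marker measured of 4, CD14, had a difference of −0.04. None passed limma's adjusted threshold, and their part in the values of the guide RNAs was not tested.

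SCARNA17, also called U91, guides methylation of the U4 small nuclear RNA. It stood at −0.36, −0.33 and −0.20 in the CDH26 clones, against 0.01 and −0.01 in the controls. No clone overlapped between the groups, and the control clones were close together. The log2 difference was −0.30 ± 0.06 (SE; 95% interval −0.46 to −0.13), a ratio of 0.815. It did not pass limma's adjusted threshold (adjusted p = 0.626, unadjusted p = 0.00875).

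SCARNA7, or U90, directs methylation of U1, the RNA that recognises the 5′ splice site. Its values were −0.66, −0.55 and −0.03 in the CDH26 clones, against 0.12 and −0.12 in the controls. CDH26 clone 3 lay between the controls, and the other CDH26 clones lay below both. The log2 difference was −0.41 ± 0.24 (SE; limma adjusted p = 0.626), and its 95% interval, −1.07 to 0.25, took in 0.

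SCARNA2 guides methylation of U2, the RNA that pairs with the branch site. In the CDH26 clones it was at −0.23, −0.25 and 0.10, against 0.00021 and −0.00021 in the controls. CDH26 clones 1 and 2 were low and clone 3 high, on either side of 2 nearly equal controls. The log2 difference was −0.12 ± 0.13 (SE; limma adjusted p = 0.723).

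SCARNA9 guides methylation of U2 as well, and SCARNA9L is a gene named as its like. SCARNA9L had the lowest mean of the set, with −1.42, −0.92 and −0.05 in the CDH26 clones, against 0.50 and −0.50 in the controls. CDH26 clone 3 lay between the controls, and control clone 2 was itself −1.003 from control clone 1. The difference was −0.79 ± 0.56 (SE; 95% interval −2.37 to 0.78; limma adjusted p = 0.631), the 70th most negative of the 14812 genes. Leaving out control clone 2 gave −1.30, and leaving out control clone 1 gave −0.29. It was the 1 RNA of the 21 with a difference of at least 0.5 log2 units in either direction, beside 3.96% of all named genes. SCARNA9 followed the same order of clones over a smaller range, at −0.71, −0.28 and −0.04 in the CDH26 clones, against 0.12 and −0.12 in the controls. Its difference was −0.35 ± 0.24 (SE; limma adjusted p = 0.628). Which of the 2 genes each probe set reads is uncertain if their sequences are near copies, and counts that include both may count 1 signal 2 times.

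**Figure D2:**
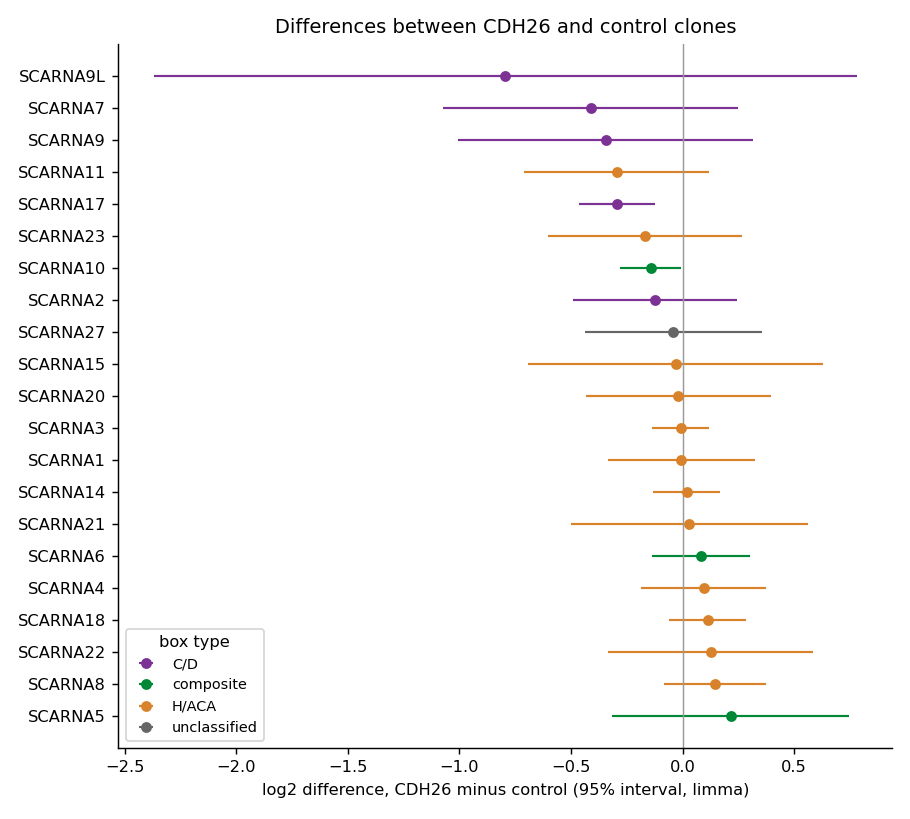
Log2 difference, CDH26 minus control, of the 21 Cajal body RNAs with its 95% interval from limma (3 CDH26 and 2 control clones), coloured by box type. The intervals of SCARNA17 and SCARNA10 lie below 0, and the other 19 take in 0.

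The composite RNAs did not share a direction. SCARNA10, or U85, which guides both kinds of modification on the U5 small nuclear RNA, was at −0.17, −0.16 and −0.10 in the CDH26 clones, against −0.06 and 0.06 in the controls. It was the other RNA without overlap, by a gap of less than the distance between the controls. The log2 difference was −0.14 ± 0.05 (SE; 95% interval −0.28 to −0.01; limma adjusted p = 0.626, unadjusted p = 0.0441).

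SCARNA5 (U87) and SCARNA6 (U88) lie within 1 gene, ATG16L1, which encodes an autophagy protein. SCARNA5 had the largest positive difference of the set, 0.22 ± 0.19 (SE; limma adjusted p = 0.672), from 0.14, 0.14 and 0.37 in the CDH26 clones, against 0.25 and −0.25 in the controls. Control clone 1 was above 2 of the 3 CDH26 clones, and the difference turned to −0.04 if control clone 2 was left out and was 0.47 if control clone 1 was. SCARNA6 was at 0.17, −0.00085 and 0.08 in the CDH26 clones, against 0.08 and −0.08 in the controls, with CDH26 clone 3 tied with control clone 1.

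The 12 box H/ACA RNAs were evenly split, with 6 lower and 6 higher means in the CDH26 clones and a median difference of 0.01. Over all named genes 49.5% had a lower mean. In 0 of the 12 were the groups free of overlap, beside 8.98% of all named genes wholly above and 9.93% wholly below. In 3 they met at tied values, as they did in 4174 of the 14812 named genes. SCARNA11 (ACA57) had the most negative difference among them. It stood at −0.09, −0.30 and −0.50 in the CDH26 clones, against 0.09 and −0.09 in the controls, and CDH26 clone 1 was tied with control clone 2. Here clone 3 was the lowest CDH26 clone, unlike in the box C/D RNAs. The difference was −0.30 ± 0.15 (SE; limma adjusted p = 0.626).

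SCARNA8 (U92), which guides pseudouridine formation in U2, had the most positive difference of the H/ACA RNAs, 0.14 ± 0.08 (SE; limma adjusted p = 0.626), or 0.029 without control clone 2 and 0.26 without control clone 1. Its values were 0.19, 0.12 and 0.13 in the CDH26 clones, against 0.12 and −0.12 in the controls, and CDH26 clone 2 was tied with control clone 1. SCARNA18 (U109) had the same pattern, at 0.17, 0.07 and 0.10 in the CDH26 clones, against 0.07 and −0.07 in the controls. In both RNAs the CDH26 clones lay with control clone 1, and control clone 2 stood apart.

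SCARNA22 (ACA11), which lies in NSD2, a histone methyltransferase gene translocated in multiple myeloma, was at 0.19, 0.10 and 0.09 in the CDH26 clones, against 0.24 and −0.24 in the controls. All 3 CDH26 clones lay between the controls. The difference was 0.13 ± 0.16 (SE), or −0.12 against control clone 1 alone and 0.37 against control clone 2 alone.

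SCARNA1 (ACA35), SCARNA3 and SCARNA4 (ACA26) each had the same value in all 3 CDH26 clones to within 1e-05. The shared value was −0.0052 for SCARNA1, against 0.18 and −0.18 in the controls. It was −0.0090 for SCARNA3, against 0.06 and −0.06, and 0.10 for SCARNA4, against 0.15 and −0.15. The tied value lay between the controls each time. Where a group has no spread of its own the test rests on few values: SCARNA4 passed the adjusted threshold without control clone 1 (limma adjusted p = 0.0446) although its difference with all clones was 0.10 ± 0.10 (SE; adjusted p = 0.719). Ties touched 9 of the 21 RNAs, 8 of them H/ACA and 1 composite, beside 53.7% of all named genes. All 5 box C/D RNAs had a different value on each array.

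SCARNA15 (ACA45), which is also known as a source of microRNA-like fragments, differed more within the CDH26 clones than between groups. It was at −0.33, −0.07 and 0.31 in the CDH26 clones, against 0.15 and −0.15 in the controls, a difference of −0.03 ± 0.24 (SE; limma adjusted p = 0.984). SCARNA23 (ACA12) was at −0.42, −0.13 and 0.04 in the CDH26 clones, against 0.0020 and −0.0020 in the controls. In both, clone 1 was the lowest and clone 3 the highest CDH26 clone.

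SCARNA21 (ACA68) and SCARNA20 (ACA66) had their highest value in CDH26 clone 1 instead. SCARNA21 was at 0.36, −0.16 and −0.11 in the CDH26 clones, against 0.02 and −0.02 in the controls. SCARNA20 was at 0.19, 0.0035 and −0.25, against 0.0035 and −0.0035, with CDH26 clone 2 tied with control clone 1. The groups overlapped in both. SCARNA14 (U100) ran from −0.06 to 0.09 over all 5 clones. SCARNA27 was at 0.17, −0.25 and −0.04 in the CDH26 clones, against −0.02 and 0.02 in the controls, so that the CDH26 clones lay on both sides of the controls.

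RNA length split the set nearly as box type did, with the composites on both sides. All 6 RNAs over 300 nucleotides in RefSeq, the 5 box C/D RNAs and SCARNA10, had a lower CDH26 mean, with a median difference of −0.32, beside 49.5% of all named genes, and this count of 6 held with any 1 clone left out. Without SCARNA9L it was 5 of 5, with a median of −0.30. Of the 15 shorter RNAs 7 had a lower mean, with a median difference of 0.02. Length and box type cannot be told apart in this set, since each box C/D RNA is over 300 nucleotides and each H/ACA RNA is under. The split was drawn after the values were seen and has no test.

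**Figure D3:**
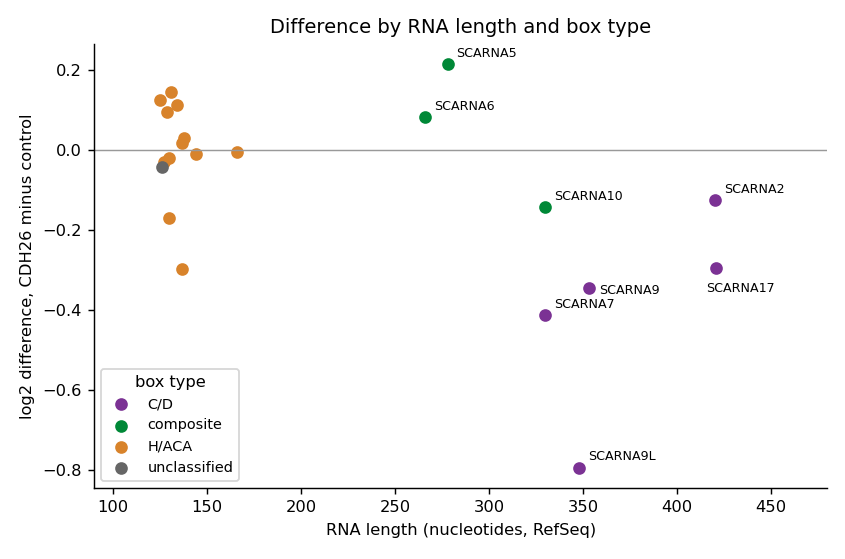
Log2 difference, CDH26 minus control, of each Cajal body RNA against its length in nucleotides in RefSeq, coloured by box type. The 6 RNAs over 300 nucleotides lie below 0, and the 15 shorter ones lie on both sides of it.

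Between the control clones the difference ran mostly 1 way. Control clone 2 was lower than control clone 1 in 18 of the 21 RNAs and higher in 3, SCARNA10, SCARNA14 and SCARNA27, with a median log2 difference, clone 2 minus clone 1, of −0.16. Over all named genes clone 2 was lower in 42.8% and the median was 0.00. It was lower in 6344 of them and higher in 6325. The remaining genes had tied controls, which none of the 21 RNAs had. Without SCARNA9L clone 2 was lower in 17 of 20. With 1 array per clone this has no test. The gap reached at least 0.5 log2 units in 2 RNAs, SCARNA9L at −1.003 and SCARNA5 at −0.51, beside 6.54% of all named genes. The next were SCARNA22 at −0.48, SCARNA1 at −0.36 and SCARNA15 at −0.31. The median gap by size was 0.16, beside 0.09 over all named genes, those with tied controls included. In 4 of the 21 RNAs all 3 CDH26 clones fell within the range of the controls, beside 16.5% of all named genes.

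**Figure D4:**
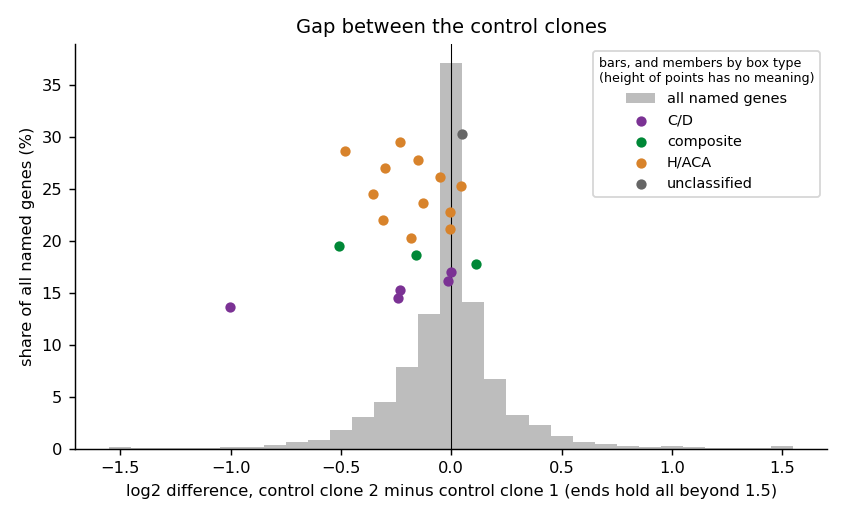
Log2 difference between the control clones, clone 2 minus clone 1. Bars give the share of all 14812 named genes, and points are the 21 Cajal body RNAs by box type at arbitrary height. Of the points 18 lie below 0, with SCARNA9L at −1.003.

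Within the CDH26 group, clones 1 and 2 were at least 0.5 log2 units apart in 2 RNAs, beside 1.28% of all named genes, and those were SCARNA9L and SCARNA21. Clone 3 was that far from clone 1 in 4 RNAs, beside 4.36%, and from clone 2 in 2, beside 2.39%. The median range over the CDH26 clones was 0.24 for the 21 RNAs, beside 0.12 over all named genes.

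Most Cajal body RNAs are made from the introns of a longer gene, and a probe on the small RNA also matches the unspliced transcript. RefSeq spans placed 20 of the 21 inside another gene, SCARNA2 being the exception, and for 11 of them such a gene was measured, 10 genes in all. The table gives no strand for the small RNAs, so which of the genes is the host was not settled by it. SCARNA11 also lay within CHD4-AS1 and SCARNA15 within SNHG21, and neither of these genes was measured. SCARNA7 and KPNA4, which encodes the importin alpha 3 nuclear import receptor, had like values: KPNA4 was at −0.69, −0.33 and −0.11 in the CDH26 clones, against 0.02 and −0.02 in the controls. The order of the CDH26 clones was the same in gene and RNA, an order also seen in SCARNA9 and SCARNA17. How many named genes have this order was not counted. KPNA4 lay below both controls in every CDH26 clone, whereas SCARNA7 overlapped them. The KPNA4 difference was −0.38 ± 0.19 (SE; limma adjusted p = 0.626), beside −0.41 for SCARNA7.

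SCARNA9 and the gene whose span holds it, CEP295, which encodes a centriole protein, did not run together. CEP295 was at −0.02, −0.02 and 0.02 in the CDH26 clones, against 0.02 and −0.02 in the controls, so its 5 values spanned far less than those of SCARNA9. For SCARNA11 the gene CHD4, a chromatin remodeller, was at −0.09, −0.05 and −0.05, against 0.06 and −0.06, and CDH26 clone 3, the lowest for SCARNA11, was not the lowest for CHD4. TIPIN, a replication fork protein whose gene holds SCARNA14, had −0.54, −0.18 and −0.18, against 0.08 and −0.08, while SCARNA14 had its highest value in CDH26 clone 1.

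NSD2 was at 0.31, 0.25 and 0.31 in the CDH26 clones, against 0.25 and −0.25 in the controls, a gap between controls like that of SCARNA22. KHDC4, the gene around SCARNA4, was at 0.16, 0.19 and 0.16, against 0.10 and −0.10. ATG16L1 was at 0.07, 0.13 and 0.14, against 0.08 and −0.08. In these 3 genes control clone 2 was the lowest array, as it was in SCARNA22, SCARNA4, SCARNA5 and SCARNA6. The same held for TMEM167A and the RNA within its span, SCARNA18. It held for CHD3 but not for SCARNA21, which was lowest in CDH26 clone 2, at −0.16. All CDH26 clones lay above control clone 2 in 25.9% of all named genes. Differences, CDH26 minus control, were −0.08 for CHD3 (around SCARNA21), 0.01 for TMEM167A (SCARNA18) and −0.11 for FSD2 (SCARNA15); none of the genes passed limma's adjusted threshold.

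**Figure D5:**
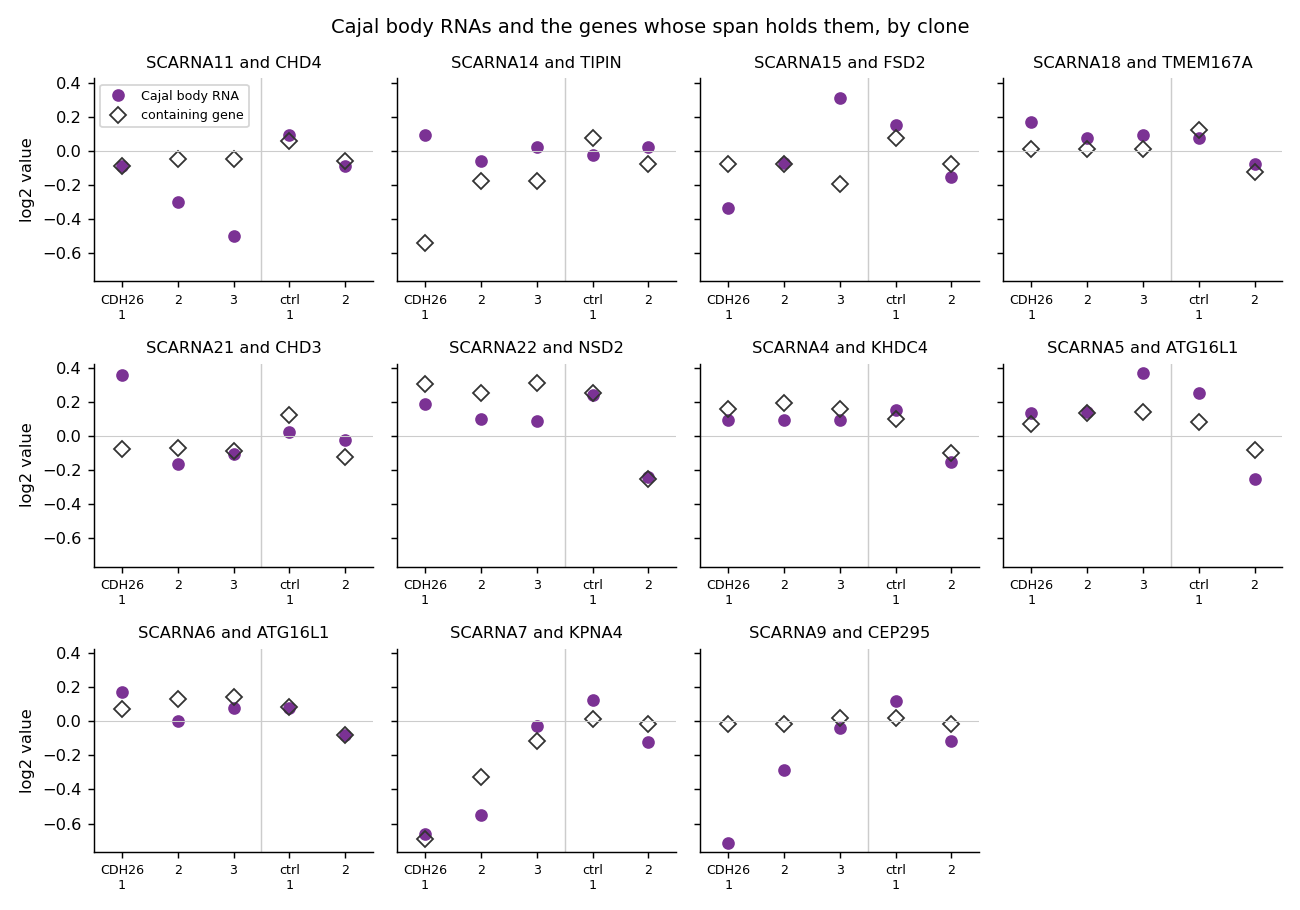
Log2 values of Cajal body RNAs (filled circles) and of the measured genes whose RefSeq span holds them (open diamonds), CDH26 clones 1 to 3 left of the line and control clones 1 and 2 right of it. SCARNA7 and KPNA4 have their lowest values in CDH26 clones 1 and 2, whereas CEP295 stays near 0 where SCARNA9 is at −0.71.

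The proteins that build H/ACA particles were measured for 7 of 8 listed genes. The list was drawn up with earlier results of these data known. The mean was lower in the CDH26 clones for 5 and higher for 2, beside a lower mean in 49.5% of all named genes. Their median difference was −0.05, and 0 passed the adjusted threshold. The CDH26 clones lay below both controls in 2 of the 7, NAF1 and RUVBL1. The share was 9.93% over all named genes and 18.6% over those without ties. The count was 4 without control clone 2, beside 25.7%, and 3 without control clone 1, beside 27%. It was 2, 3 and 3 without CDH26 clones 1, 2 and 3, beside 13.3%, 11.9% and 17.3%. NAF1, an assembly factor of H/ACA particles, was at −0.27, −0.11 and −0.11, against 0.06 and −0.06 in the controls (difference −0.16 ± 0.07, SE; limma adjusted p = 0.626). RUVBL1, an ATPase of the assembly machinery, was at −0.48, −0.25 and −0.13, against −0.0095 and 0.0095.

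The core proteins showed smaller differences: −0.13 for GAR1, −0.03 for NHP2 and 0.11 for NOP10, with SEs of 0.09, 0.04 and 0.07. Assembly proteins SHQ1 and RUVBL2 were at 0.09 and −0.05. In none of these 5 genes were the groups free of overlap or ties at the edge. Over all named genes 8.98% lay wholly above and 9.93% wholly below. The gene for dyskerin, DKC1, was not analysed here, nor was WRAP53, whose protein carries these RNAs to Cajal bodies.

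TERC, the telomerase RNA, is itself an H/ACA RNA that passes through Cajal bodies, though its symbol keeps it out of the 21. It was at −0.61, −0.31 and −0.17 in the CDH26 clones, against 0.04 and −0.04 in the controls. All 3 CDH26 clones were below both controls, and clone 3 was the nearest to them. The difference was −0.36 ± 0.15 (SE; 95% interval −0.78 to 0.06; limma adjusted p = 0.626). TERT, which encodes the telomerase protein, had a difference of −0.03 ± 0.07.

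Of the Cajal body and small nuclear ribonucleoprotein factors 17 of 22 listed genes were measured. The mean was lower in CDH26 clones for 12 and higher for 5, beside a lower mean in 49.5% of all named genes. Their median difference was −0.04, and 0 passed the adjusted threshold. COIL, which encodes coilin, the marker protein of the Cajal body, was at 0.02, 0.10 and 0.04, against 0.12 and −0.12 in the controls, with all CDH26 clones between the controls. In 5 genes the CDH26 clones lay below both controls: NOLC1, ICE1, TGS1, DDX20 and GEMIN5, named here after their values were seen. The share was 9.93% over all named genes and 18.6% over those without ties. Leaving out control clone 1 or control clone 2 gave a count of 10 each time, beside 27% and 25.7%. Leaving out CDH26 clone 1 gave 8, beside 13.3%. The count stayed at 5 without CDH26 clone 2, beside 11.9%, and at 5 without clone 3, beside 17.3%.

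NOLC1, a phosphoprotein that shuttles between nucleolus and Cajal body and binds guide RNA particles, had the most negative difference of that list. Its values were −0.85, −0.72 and −0.44 in the CDH26 clones, against −0.05 and 0.05 in the controls, and the difference was −0.67 ± 0.14 (SE; 95% interval −1.07 to −0.27; limma adjusted p = 0.626). ICE1, a subunit of the little elongation complex, which serves transcription of small nuclear RNAs, was at −0.95, −0.42 and −0.18, against 0.10 and −0.10. CDH26 clone 3 was the nearest to the control mean in 7 of the 17 genes of the list, NOLC1 and ICE1 among them, a share of 41.2% beside 33.9% of all named genes.

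Among box C/D proteins, 4 of 7 listed genes were measured, and all 4 had a lower CDH26 mean, beside 49.5% of all named genes. NOP58, a core protein of these particles, was at −0.45, −0.29 and −0.20, against 0.10 and −0.10 in the controls (difference −0.31 ± 0.11, SE; limma adjusted p = 0.626). NUFIP1, an assembly factor, was at −0.44, −0.52 and −0.20, against −0.12 and 0.12. Both lay below the controls in every CDH26 clone, 2 of 4 genes beside 9.93% of all named genes and 18.6% of those without ties. Fibrillarin (FBL) and SNU13 did not, with differences of −0.0041 and −0.06.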

How the data were processed

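Values were the authors' deposited log table, read as log2; per the labels' protocols RNA was extracted with the miRNeasy kit, which keeps small RNAs, then labelled with biotin. The submitters' processing notes name Affymetrix Expression Console. Its version is not given in the sources used here, nor are summarisation, normalization and build. In all 44607 probe sets the control values sum to 0 within 1e-06, so the deposited log2 values are relative to the control mean.

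The platform annotation named 15835 probe sets with 1 gene each, 0 with several, and left 28772 unnamed. Genes were means over their probe sets; each Cajal body RNA had 1. RefSeq (GRCh38.p14) gave names, RNA lengths and containing genes, and none of its coordinates are printed.

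Clones were grouped by their labels. limma 3.58.1 in R 4.3.3 (lmFit, eBayes, two-sided, group only) was fitted on all 14812 genes with Benjamini-Hochberg adjustment; prior degrees of freedom were 0.885. It was tested on simulated data. An exact permutation of 3 against 2 clones cannot go below a p of 0.1 and was not used. Values within 1e-05 counted as tied. The number of arrays limits the precision.

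Members and lists were chosen with earlier results of these data known. Named were every Cajal body RNA, CDH26, H/ACA protein genes, COIL, TERC and genes holding a member; other names were chosen after their values were seen. No brightness filter was possible on centred values. Alternatives were recentring, other variance models, array weights, the clone number as a replicate block, leaving out single clones, other probe set rules, genes without ties, natural logarithms and another threshold. Figures used matplotlib 3.10.9.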

Additional observations from a re-analysis of the deposited data

How the results depend on the processing

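With each clone left out in turn, the median difference of the 21 RNAs, CDH26 minus control, ran from −0.087 to −0.0043, the number with a lower mean from 11 to 16, the number wholly below the controls from 2 to 10 and wholly above from 0 to 8. The genes past the adjusted threshold over the whole table ran from 0 to 186, and the 186 were found without control clone 1. The lone control clone is then assumed to vary like the CDH26 clones. Among the 6857 genes with 5 different values, which hold 12 of the RNAs, 1 gene passed (CDH26, limma adjusted p = 0.0106), the median difference was −0.13, and 10 of the 12 were lower in control clone 2; fewer genes are tested there. Read as natural logarithms, the median gap between control clones was −0.23 and 4 RNAs were at least 0.5 apart, by the conversion itself. Without SCARNA9L, an alternative chosen after seeing the data, 1 RNA was that far apart.

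Directions turned with array weights for SCARNA14 (−0.024) and SCARNA21 (−0.077). With 1 clone left out they turned for SCARNA1 (range −0.18 to 0.17), SCARNA3 (−0.073 to 0.055), SCARNA4 (−0.054 to 0.25), SCARNA5 (−0.038 to 0.47), SCARNA14 (−0.017 to 0.057), SCARNA15 (−0.20 to 0.12), SCARNA20 (−0.12 to 0.10), SCARNA21 (−0.13 to 0.13), SCARNA22 (−0.12 to 0.37) and SCARNA27 (−0.15 to 0.065). The same held for COIL (−0.067 to 0.17), RUVBL2 (−0.13 to 0.029), SHQ1 (−0.066 to 0.25), CHD3 (−0.20 to 0.042), CEP295 (−0.022 to 0.011) and TMEM167A (−0.11 to 0.13). The cause was not tested. SCARNA4 passed the adjusted threshold without control clone 1. All 5 box C/D RNAs, SCARNA10, SCARNA11, SCARNA23 and TERC kept a negative difference with each clone left out, over ranges of −1.30 to −0.29 for SCARNA9L, −0.60 to −0.29 for SCARNA7, −0.50 to −0.16 for SCARNA9, −0.34 to −0.26 for SCARNA17, −0.24 to −0.063 for SCARNA2, −0.27 to −0.043 for SCARNA23, −0.40 to −0.19 for SCARNA11, −0.20 to −0.087 for SCARNA10 and −0.46 to −0.24 for TERC. Positive throughout were SCARNA6 (0.0034 to 0.16), SCARNA8 (0.029 to 0.26) and SCARNA18 (0.039 to 0.19), and KPNA4 ran from −0.51 to −0.22. With the clone number as a replicate block the median was −0.0090, 12 of the 21 had a lower mean, 0 genes passed and SCARNA20 turned to 0.10. These differences are the same as without CDH26 clone 3, because no control clone shares its number. The numbers were taken only as names of clones, and nothing was paired. Deviations of same-numbered clones correlated over genes at −0.20 and −0.21. With equal and opposite controls, each correlation with 1 control is minus that with the other. These values therefore cannot tell whether clones of 1 number share a batch. Trend and robust variance and an adjusted threshold of 0.1 left the number of genes past the adjusted threshold at 0. Recentring could change nothing, since each array's median was already 0, nor could the probe set rules change the 21 RNAs, which have 1 probe set each. Counts at an unadjusted p were not recomputed.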

Other observations

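Other small RNA genes of the table were set beside the Cajal body RNAs. The 1037 genes with a microRNA symbol had a median log2 difference, CDH26 minus control, of 0.00014, with 4.53% wholly below and 6.75% wholly above the control clones, beside 9.93% and 8.98% of all named genes. RMRP, the RNA of RNase MRP, was at −0.16, −0.15 and 0.08 in the CDH26 clones, against 0.09 and −0.09 in the controls. RPPH1, the RNA of RNase P, was at 0.20, 0.20 and 0.23, against −0.20 and 0.20.

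Of the 10 snoRNA host transcripts measured, 8 had a lower CDH26 mean, beside 49.5% of all named genes. However, the CDH26 clones lay wholly below the controls in 0 of the 10, beside 9.93%. The groups met at tied values in 5 and overlapped in 4, beside 4174 and 7837 of the 14812 named genes. In 1 of the 10, GAS5, the CDH26 clones lay wholly above the controls, beside 8.98%, at 0.29, 0.31 and 0.15, against 0.10 and −0.10. Control clone 2 was the higher control in 8 of these 10, where it was the lower in 18 of the 21 Cajal body RNAs. Of the 14812 named genes it was higher in 6325 and lower in 6344. With 1 array per clone this has no test. The nuclear RNA decay genes, 14 of 17 listed, had 5 members wholly below the controls. The share was 9.93% over all named genes and 18.6% over those without ties. The count was 10 without control clone 2, beside 25.7%, and 5 without control clone 1, beside 27%. It was 5, 6 and 6 without CDH26 clones 1, 2 and 3, beside 13.3%, 11.9% and 17.3%. Among the 5 with all clones kept were the exosome subunits EXOSC1 at −0.26 ± 0.06 (SE) and EXOSC4 at −0.37 ± 0.08 (limma adjusted p = 0.626 for each). They were named after their values were seen.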
